A study of Homo sapiens with 12 samples.

Results

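Glutathione turnover was followed through 10 genes chosen by name, which are CHAC1, GGCT, GSS, GSR, GLRX, GPX1, GPX2, GPX4, GSTP1 and MGST1, out of 12372 genes in the deposited tables. RNA was sequenced from 23132/87 cells, a gastric adenocarcinoma line, and from SW48 cells, a colorectal adenocarcinoma line, both labelled as wild type. Myricone C was given at 10 µM, the controls had 0.1% DMSO as vehicle, and the labelled time is 48 h in every group. Each of the 4 groups held 3 libraries, labelled as biological replicates without a statement that they came from separate cultures, so the p-values measure the spread between these libraries. One dose, one time point and a single line for each tissue were available. The table for 23132/87 holds 11070 genes and the table for SW48 holds 11554. GLRX is not listed for 23132/87 and GPX2 is not listed for SW48, so 9 of the genes have values in each line and 8 in both. Every listed value is at least 1, so a gene that is not listed may have been low rather than unmeasured. All values below are on the deposited scale, a library-scaled expression signal whose exact definition is not given in the sources used here.

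Glutathione is a tripeptide of glutamate, cysteine and glycine that serves as the main low-molecular-weight thiol of the cell. It is built in steps by glutamate-cysteine ligase and by glutathione synthetase, spent by peroxidases and transferases, recycled from its oxidised disulphide by glutathione reductase, and broken down to 5-oxoproline and cysteinylglycine. CHAC1 belongs to the cytosolic breakdown arm and is a known target of the transcription factors ATF4 and CHOP (encoded by DDIT3) in the integrated stress response. Several synthesis and transferase genes are known targets of NRF2 (encoded by NFE2L2), which binds antioxidant response elements. In the gut epithelium GPX2 is the characteristic glutathione peroxidase.

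The stretches of sequence that carry a short match to the elements bound by these factors are shown for the promoters of the members. RefSeq promoter windows on GRCh38.p14, each reaching from 250 bases before to 50 bases after a start, were held for 7 of the 10 members and 11 starts. Both strands were searched for TGATGNAA (the composite element bound by ATF4 and C/EBP), TGACNNNGC (the antioxidant response element core) and TGACGT (the cAMP response element half-site), and 5 members held a match. Each line gives 30 bases in the direction of transcription with the matching bases in capitals.
CHAC1: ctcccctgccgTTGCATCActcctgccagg
GPX2: acctgtttttGCTAAGTCAtcctggggatg
GPX4: cctcccattggcTGACGTcggcgcgagcgc
GSTP1: gccggcgccgTGACTCAGCactggggcgga
MGST1: ggggacatcgTGACAAAGCaaattgtctgg

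The CHAC1 stretch lies at chr15:40953251-40953280 on the plus strand and holds the composite element, read on the opposite strand, from 209 to 202 bases before the start. The GPX2 stretch lies at chr14:64942848-64942877 on the minus strand and holds the antioxidant response element core, read on the opposite strand, from 122 to 114 bases before the start. The GPX4 stretch at chr19:1103883-1103912, on the plus strand, carries the half-site 99 to 94 bases before the start. In the GSTP1 stretch at chr11:67583736-67583765, also on the plus strand, the antioxidant core lies 66 to 58 bases before the start. The MGST1 stretch at chr12:16347135-16347164, plus strand, holds its core just after 1 of the annotated starts. These distances are counted from the RefSeq start of each window. The GENCODE spans of CHAC1, GPX2 and GSTP1 given below begin further upstream, so their matches lie inside those spans. No match was found in the windows of GLRX or GPX1. Among 35116 windows of 300 bases from 27305 genes, 3.62% held the composite element, 13.3% the antioxidant core and 7.98% the half-site. The matches are letters in a window and do not show that a factor binds there.

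The libraries summed to between 464037 and 536594 on the deposited scale, and every treated library summed to less than every vehicle library of its line. The sums were 464037 to 506021 in treated against 518943 to 525838 in vehicle libraries of 23132/87. In SW48 they were 477551 to 499845 in treated against 509551 to 536594 in vehicle libraries. The main fit did not rescale the libraries. A single component carried 77.3% of the variance among the 23132/87 libraries and 68.7% among the SW48 libraries, and in each line it set the myricone C libraries apart from the vehicle ones. SW48 myricone C replicate 1 lay closer to the vehicle libraries than replicates 2 and 3, and structural RNA made up 5.41% of its total, against 0.161% to 0.339% in the other 5 SW48 libraries. All 6 epithelial markers were listed in both lines, summing to 2869 to 3905 in treated 23132/87 libraries against 7767 to 10409 in vehicle libraries, and to 2790 to 3963 in treated SW48 libraries against 1023 to 1795 in vehicle libraries. KRT8 and KRT18 carried most of these sums, and the other markers did not all follow them. The means of CDH1 were 149 with myricone C and 101 with vehicle in 23132/87, and those of EPCAM were 193 with myricone C and 233 with vehicle in SW48. Of 6 gastric markers 23132/87 listed TFF1 alone, with a mean of 160.3 with myricone C against 292 with vehicle. Of 7 intestinal markers 23132/87 listed CDX2, VIL1 and CDH17, summing to 182 to 246 in treated against 307 to 356 in vehicle libraries. SW48 listed CDX2, CDH17 and LGR5, which summed to 17.6 to 25.4 in treated against 38.6 to 48.0 in vehicle libraries. These markers did not move together. In 23132/87 the means with myricone C and vehicle were 68.4 and 197 for VIL1, 150 and 129 for CDH17, and 4.72 and 4.80 for CDX2. In SW48 they were 11.9 and 34.0 for CDX2, 5.61 and 4.64 for CDH17, and 2.88 and 5.52 for LGR5. Of the leukocyte, mesenchymal and endothelial markers, 23132/87 listed CD68 (means 14.0 with myricone C and 5.53 with vehicle) and COL1A1, and SW48 listed ACTA2 alone. The part of these shifts in the results below was not tested. In bulk RNA, fewer cells of a type and less RNA per cell cannot be told apart.

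Across the 9 members measured in 23132/87, CHAC1 and MGST1 rose under myricone C, GGCT, GSS, GPX1 and GPX2 fell, and GSR, GPX4 and GSTP1 did not pass the test. A gene is called changed where limma on log2(value + 1) gave a Benjamini-Hochberg adjusted p under 0.05 over all genes of the line. By that rule 46.5% of all 23132/87 genes were called, 23.3% higher and 23.2% lower, so 6 of 9 called members stands near the background. In SW48, CHAC1 and GSR rose, GGCT, GSS, GLRX, GPX1 and GSTP1 fell, and GPX4 and MGST1 did not pass. The background in SW48 was 29.3%, with 10.1% higher and 19.2% lower, against 7 of 9 members. The median log2 change of the members was 0.00 in 23132/87, where all genes had 0.01, and -0.38 in SW48, where all genes had -0.08. The treated and vehicle libraries did not overlap for 6 of 9 members in 23132/87, against 56.8% of all genes (28.9% with the treated libraries above and 27.9% below). They did not overlap for 8 of 9 members in SW48, against 45.3% of all genes (16.8% above and 28.4% below).

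**Figure D1:**
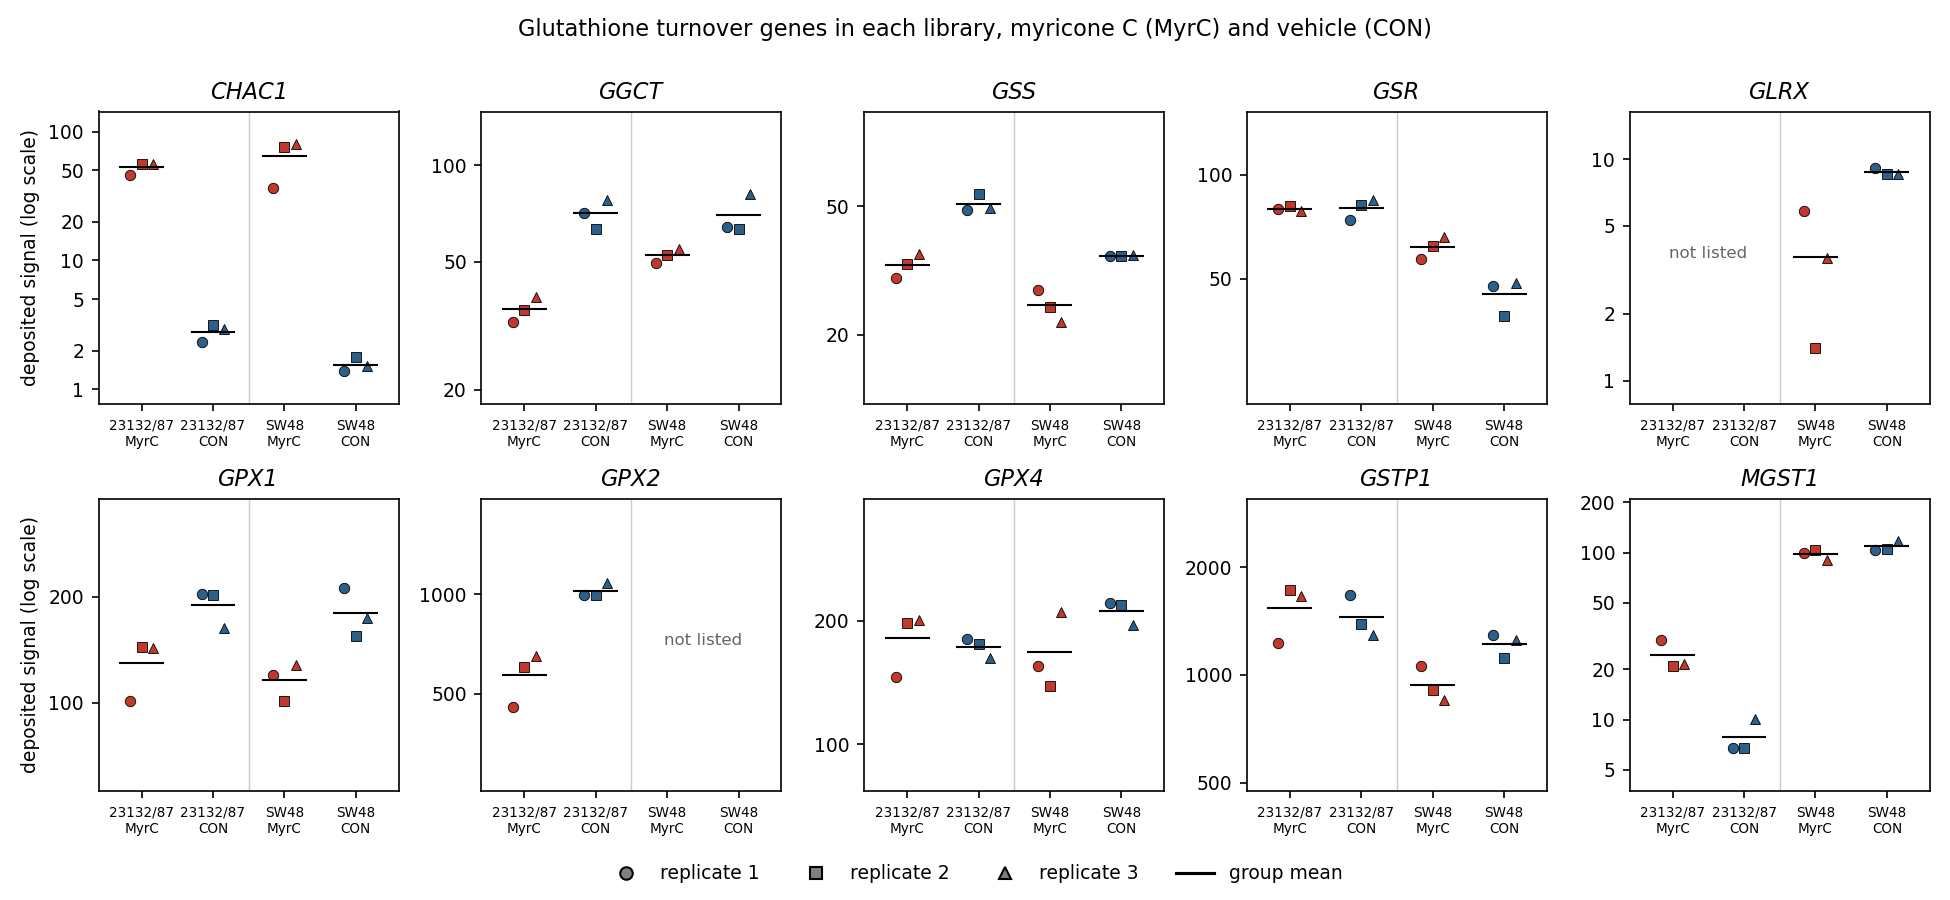
Deposited expression value (log axis) of each member in each library, with 23132/87 and SW48 side by side and myricone C left of vehicle. Symbols mark replicates and black lines the group means. CHAC1 shows the widest gap between the groups in both lines, and MGST1 is separated by a wide gap in 23132/87 but lies close to its vehicle libraries in SW48.

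CHAC1 (chromosome 15, bases 40952962 to 40956519, plus strand, GRCh38) encodes a gamma-glutamylcyclotransferase that cleaves glutathione itself. In 23132/87 it measured 46.4, 55.6 and 56.0 in the myricone C libraries, against 2.32, 3.15 and 2.93 in the vehicle libraries. In SW48 it measured 36.7, 76.2 and 79.7 in the myricone C libraries, against 1.38, 1.78 and 1.51 in the vehicle libraries. All 3 treated libraries lay above all 3 vehicle libraries in both lines, and the lowest treated SW48 value came from replicate 1. The mean was 52.7 ± 5.45 with myricone C against 2.80 ± 0.430 with vehicle in 23132/87 (SD, n = 3 each), a ratio of 18.8. In SW48 the mean was 64.2 ± 23.8 with myricone C against 1.56 ± 0.206 with vehicle (SD, n = 3 each), a ratio of 41.2. CHAC1 therefore had among the highest rises of the listed genes, with a larger log2 change in only 4 genes of 23132/87 and in 1 gene of SW48. Genes that are not listed for a line could not be ranked. The log2 change was 3.82 ± 0.13 in 23132/87 (SE, adjusted p = 1.82e-07) and 4.60 ± 0.25 in SW48 (SE, adjusted p = 4.78e-06). The added 1 in the logarithm understates the change of a gene with so low a vehicle level.

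GGCT (chromosome 7, bases 30496621 to 30504844, minus strand) encodes the cyclotransferase that acts on gamma-glutamyl amino acids and releases 5-oxoproline. The 23132/87 libraries gave 32.5, 35.5 and 38.8 with myricone C, against 70.9, 63.2 and 78.1 with vehicle. The SW48 libraries gave 49.7, 52.5 and 54.9 with myricone C, against 64.4, 63.3 and 81.6 with vehicle. Both breakdown enzymes were thus separated from their vehicle libraries in both lines but in opposite directions, CHAC1 upwards and GGCT downwards. The log2 change of GGCT was -0.97 ± 0.11 in 23132/87 (SE, adjusted p = 0.000106) and -0.40 ± 0.13 in SW48 (SE, adjusted p = 0.0339). The SW48 call was lost without vehicle replicate 3 (log2 change -0.28, adjusted p = 0.144) and without any 1 of the 3 treated replicates (adjusted p from 0.0549 to 0.0838), and under 4 other settings given at the end (adjusted p from 0.0520 to 0.0904). An annotated protein-coding gene on the same strand, AC005154.5, overlaps GGCT and is not listed.

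The ratio of CHAC1 to GGCT within a library does not change when a library is rescaled. It was 1.43, 1.57 and 1.45 in the myricone C libraries of 23132/87, against 0.0327, 0.0499 and 0.0375 in the vehicle libraries. In SW48 it was 0.740, 1.45 and 1.45 in the myricone C libraries, against 0.0215, 0.0282 and 0.0185 in the vehicle libraries. The groups did not overlap in either line. Since gene length may enter the deposited scale, the change of the ratio between groups can be read but not whether it lies above or below 1.

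GSS (chromosome 20, bases 34928433 to 34956027, minus strand) encodes glutathione synthetase, which adds glycine to gamma-glutamylcysteine in the last step of synthesis. Its values in 23132/87 were 29.9, 33.2 and 35.6 with myricone C, against 48.7, 54.5 and 49.5 with vehicle. Its values in SW48 were 27.6, 24.4 and 22.0 with myricone C, against 35.0, 35.2 and 35.3 with vehicle. GSS was lower in every treated library of both lines, by a log2 change of -0.62 ± 0.10 in 23132/87 (SE, adjusted p = 0.000915) and -0.50 ± 0.12 in SW48 (SE, adjusted p = 0.00977). Its change in SW48 minus its change in 23132/87 was 0.12, with a 95% interval from -0.20 to 0.44 (adjusted p = 0.639).

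GSR encodes glutathione reductase, which uses NADPH to return the oxidised disulphide to glutathione. Values in 23132/87 were 79.4, 81.0 and 78.7 with myricone C, against 73.8, 81.6 and 84.7 with vehicle, and the groups overlapped. Values in SW48 were 56.9, 62.2 and 65.9 with myricone C, against 47.8, 39.0 and 48.7 with vehicle, and every treated library was higher. The log2 change was -0.00 ± 0.09 in 23132/87 (SE, adjusted p = 0.979) and 0.44 ± 0.12 in SW48 (SE, adjusted p = 0.0197). Without SW48 vehicle replicate 2 the SW48 change was 0.35 (adjusted p = 0.0691), and it also missed the threshold without treated replicate 2 (adjusted p = 0.0597) or treated replicate 3 (adjusted p = 0.0689).

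GLRX (chromosome 5, bases 95751319 to 95823005, minus strand) encodes glutaredoxin, which removes glutathione from protein cysteines. It was measured in SW48, at 5.84, 1.41 and 3.57 in the myricone C libraries against 9.12, 8.60 and 8.57 in the vehicle libraries. All treated libraries were lower, and they spread more widely (3.61 ± 2.22, SD, n = 3) than the vehicle libraries (8.76 ± 0.308, SD, n = 3). The log2 change was -1.21 ± 0.29 (SE, adjusted p = 0.0103), and 99 SW48 genes fell further. The size depends on treated replicate 2, without which the change was -0.80 (adjusted p = 0.0146), and on the pseudocount, the change being -0.71 with 5 (adjusted p = 0.00580) and -1.47 with 0.1 (adjusted p = 0.0142). GLRX overlaps RHOBTB3, which lies on the opposite strand and is listed, and the strand setting of the counting is not given in the sources used here.

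GPX1 (chromosome 3, bases 49357171 to 49358600, minus strand) encodes the ubiquitous cytosolic selenoenzyme that reduces hydrogen peroxide with glutathione. Among 23132/87 libraries GPX1 measured 101, 144 and 143 with myricone C, against 203, 203 and 163 with vehicle. Among SW48 libraries GPX1 measured 120, 101 and 128 with myricone C, against 212, 155 and 175 with vehicle. GPX1 was lower in every treated library of both lines, with a log2 change of -0.56 ± 0.15 in 23132/87 (SE, adjusted p = 0.0125) and -0.63 ± 0.14 in SW48 (SE, adjusted p = 0.00652). Without 23132/87 vehicle replicate 2 the change there was -0.51 (adjusted p = 0.0521). The change in SW48 minus that in 23132/87 was -0.07, with a 95% interval from -0.53 to 0.40. The processed pseudogene GPX1P1 is listed in SW48, at 1.33, 3.19 and 4.09 with myricone C against 3.34, 2.02 and 2.74 with vehicle, far below GPX1 in every library; how reads shared by the copies were assigned is not given in the sources used here.

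GPX2 (chromosome 14, bases 64939152 to 64942905, minus strand), the gastrointestinal peroxidase, was measured in 23132/87. It reached 457, 604 and 652 in the myricone C libraries, against 992, 994 and 1082 in the vehicle libraries. Every treated library was lower, the mean being 571 ± 102 with myricone C against 1023 ± 51.0 with vehicle (SD, n = 3 each). The log2 change was -0.85 ± 0.14 (SE, adjusted p = 0.00104). CHURC1, on the opposite strand, overlaps GPX2 and is listed.

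GPX4 (chromosome 19, bases 1103926 to 1106791, plus strand) encodes the peroxidase that reduces phospholipid hydroperoxides within membranes and restrains ferroptosis. The 23132/87 values were 146, 197 and 201 with myricone C, against 180, 175 and 162 with vehicle. The SW48 values were 155, 139 and 210 with myricone C, against 220, 219 and 195 with vehicle. The groups overlapped in both lines, and the log2 changes were 0.06 ± 0.13 in 23132/87 (SE, adjusted p = 0.740) and -0.35 ± 0.15 in SW48 (SE, adjusted p = 0.0983). Treated replicate 3 decides the SW48 outcome, since without it the change was -0.52 (adjusted p = 0.0117). Within a library the ratio of GPX1 to GPX4 was 0.693, 0.731 and 0.713 in treated 23132/87 libraries, against 1.13, 1.16 and 1.01 in vehicle libraries, with no overlap. In SW48 that ratio was 0.774, 0.727 and 0.608 in treated libraries, against 0.963, 0.709 and 0.896 in vehicle libraries, and the groups overlapped.

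GSTP1 (chromosome 11, bases 67583595 to 67586656, plus strand) encodes the pi class cytosolic transferase, which couples glutathione to electrophiles. GSTP1 in 23132/87 measured 1230, 1729 and 1665 with myricone C, against 1671, 1388 and 1295 with vehicle, and the groups overlapped. GSTP1 in SW48 measured 1062, 905 and 852 with myricone C, against 1292, 1114 and 1250 with vehicle, and every treated library was lower. The log2 change was 0.08 ± 0.17 in 23132/87 (SE, adjusted p = 0.722) and -0.38 ± 0.12 in SW48 (SE, adjusted p = 0.0365). The SW48 call was lost without vehicle replicate 1 (adjusted p = 0.131), vehicle replicate 3 (adjusted p = 0.118), treated replicate 2 (adjusted p = 0.104) or treated replicate 3 (adjusted p = 0.0773). It was also lost under 5 settings without a block that are given at the end (adjusted p from 0.0554 to 0.0982), and with the block by column number (-0.27, adjusted p = 0.205).

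MGST1 (chromosome 12, bases 16347142 to 16609259, plus strand) encodes a transferase held in the endoplasmic reticulum and outer mitochondrial membranes, with peroxidase activity towards lipid hydroperoxides. MGST1 in 23132/87 measured 30.1, 21.1 and 21.7 with myricone C, against 6.71, 6.73 and 10.1 with vehicle. MGST1 in SW48 measured 99.4, 103.6 and 90.3 with myricone C, against 103.9, 105.9 and 117 with vehicle. MGST1 rose in 23132/87, where its mean was 24.3 ± 5.06 with myricone C against 7.85 ± 1.96 with vehicle (SD, n = 3 each). The log2 change there was 1.52 ± 0.18 (SE, adjusted p = 0.000135), and 110 genes rose further. In SW48 the treated libraries lay just below the vehicle libraries without overlap, but the log2 change of -0.16 ± 0.11 (SE) did not pass the test (adjusted p = 0.307). The SW48 values stand above those of 23132/87 in both treatments, with the reservation that the tables of the lines were prepared separately. Within a library the ratio of MGST1 to GSTP1 was 0.0245, 0.0122 and 0.0130 in treated 23132/87 libraries, against 0.00401, 0.00485 and 0.00781 in vehicle libraries. In SW48 it was 0.0936, 0.114 and 0.106 in treated libraries, against 0.0804, 0.0951 and 0.0939 in vehicle libraries, where the groups overlapped by replicate 1.

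**Figure D2:**
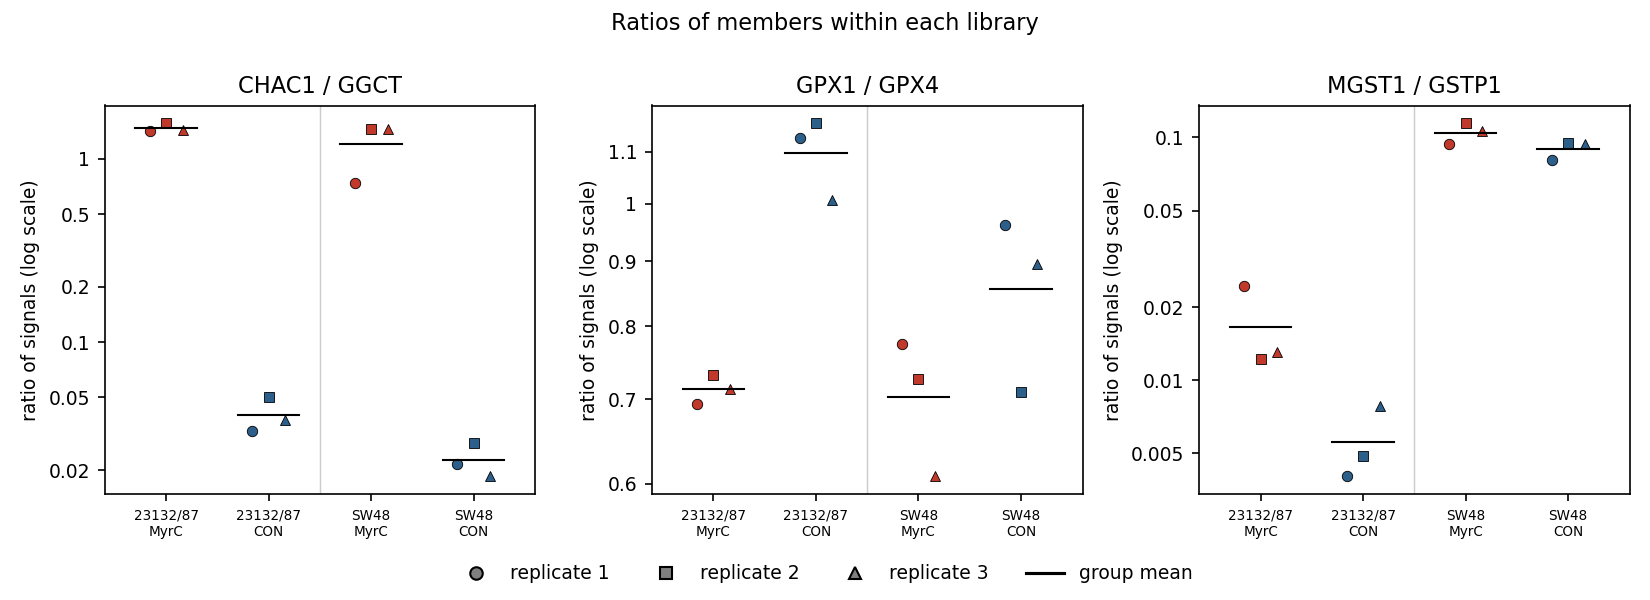
Ratio of CHAC1 to GGCT, GPX1 to GPX4 and MGST1 to GSTP1 within each library (log axis), with myricone C left of vehicle in each line. The groups are apart for all 3 ratios in 23132/87 and for CHAC1 to GGCT in SW48, and they overlap for the other two in SW48.

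The change in SW48 was then set against the change in 23132/87 for the 8 members measured in both lines, by the interaction term over all 12 libraries and 10252 shared genes. In this comparison 12.8% of genes were called, 5.34% with the higher change in SW48 and 7.43% with the lower. GGCT and MGST1 passed the test, and the other 6 members did not. For MGST1 the change was -0.16 in SW48 against 1.52 in 23132/87, a difference of -1.67 ± 0.22 (SE, adjusted p = 0.000421), and 14 genes had a lower difference. The MGST1 difference stayed past the threshold without any 1 library and in every other setting that was run, from -1.85 to -1.34. For GGCT the change was -0.40 in SW48 against -0.97 in 23132/87, a difference of 0.57 ± 0.17 (SE, adjusted p = 0.0357). The GGCT difference missed the threshold in 8 of the 12 fits that left out 1 library each, namely vehicle replicate 1 or 2 or treated replicate 2 or 3 of SW48, and vehicle replicate 1 or 3 or treated replicate 1 or 2 of 23132/87 (differences from 0.50 to 0.57, adjusted p from 0.0665 to 0.0891). It also missed with sample weights (0.44, adjusted p = 0.0515). The weights, which apply to every weighted difference given here, were uneven. In 23132/87 they were 0.43, 4.11 and 1.25 for treated replicates 1, 2 and 3, and 1.06, 2.55 and 0.59 for the vehicle replicates.

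For CHAC1 the difference in log2 change, SW48 minus 23132/87, was 0.77 ± 0.31 (SE, 95% interval from 0.11 to 1.44, adjusted p = 0.113). Leaving out SW48 myricone C replicate 1 made it 1.13 ± 0.19 (SE, adjusted p = 0.00187), and sample weights gave 0.88 (adjusted p = 0.0200). It was 0.45 with a pseudocount of 5 (adjusted p = 0.296) and 1.01 with 0.1 (adjusted p = 0.0587), so its size and call depend on these choices. For GSR the difference was 0.45, with a 95% interval from 0.13 to 0.76 (adjusted p = 0.0596), and 0.50 without the same library (adjusted p = 0.0428), 0.55 with median scaling (adjusted p = 0.0264) and 0.42 with sample weights (adjusted p = 0.0274). For GSTP1 it was -0.46, with an interval from -0.90 to -0.02 (adjusted p = 0.158), and -0.61 without 23132/87 myricone C replicate 1 (adjusted p = 0.0334) or -0.64 with sample weights (adjusted p = 0.0145). For GPX4 it was -0.41, with an interval from -0.86 to 0.04 (adjusted p = 0.215).

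**Figure D3:**
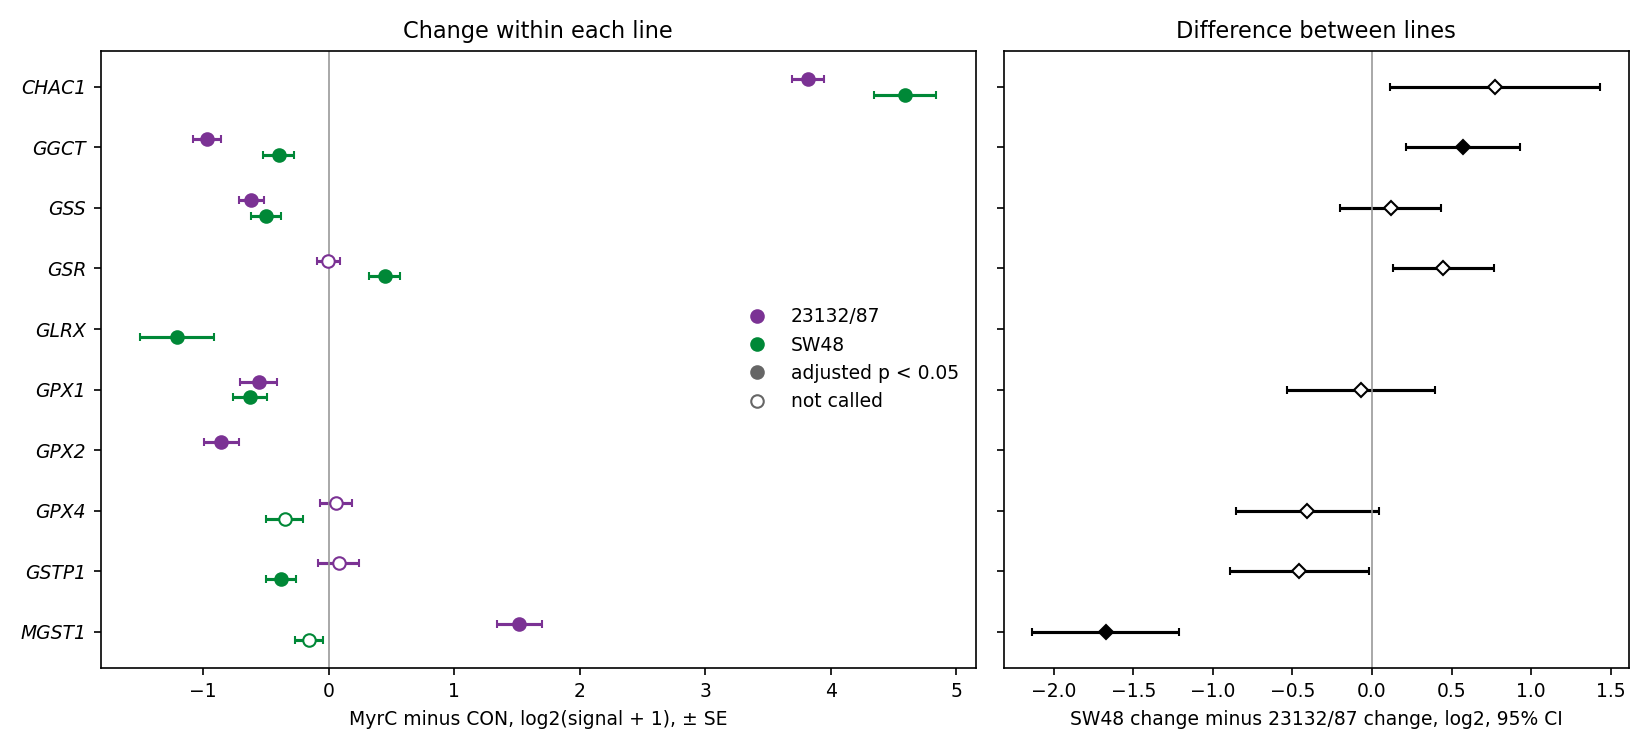
Left, log2 change (myricone C minus vehicle, on log2(value + 1)) with its SE for each member in 23132/87 and SW48, filled where called. Right, the SW48 change minus the 23132/87 change with its 95% interval. CHAC1 lies far above 0 in both lines at 3.82 and 4.60, and MGST1 has the most negative difference at -1.67.

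The genes that feed glutathione synthesis were read from a list of 9, of which 8 are listed in both tables. In 23132/87, 7 of the 8 rose and none fell, with a median log2 change of 1.93 against 0.01 for all genes. In SW48, 6 of the 8 rose and none fell, with a median of 1.53 against -0.08 for all genes. Over all genes 23.3% rose and 23.2% fell in 23132/87, and 10.1% rose and 19.2% fell in SW48, the shares against which the counts of each list are to be read. SLC7A11, the cystine importer, averaged 84.0 ± 11.7 with myricone C against 12.5 ± 3.50 with vehicle in 23132/87 (SD, n = 3 each), and 29.3 ± 5.05 against 2.49 ± 0.0635 in SW48 (SD, n = 3 each). GCLC, the catalytic subunit of glutamate-cysteine ligase, averaged 153 ± 16.5 with myricone C against 40.7 ± 8.90 with vehicle in 23132/87 (SD, n = 3 each), and 214 ± 58.0 against 44.4 ± 5.08 in SW48 (SD, n = 3 each). Its modifier subunit GCLM rose by 2.01 ± 0.17 in 23132/87 and by 1.22 ± 0.17 in SW48 on the log2 scale (SE). SLC3A2, the heavy chain of the cystine importer, rose by 1.95 ± 0.09 and CTH, which makes cysteine from cystathionine, by 1.52 ± 0.15 in 23132/87 (log2, SE). In SW48 the log2 changes were 1.88 ± 0.16 for SLC3A2 and 1.84 ± 0.23 for CTH (SE). GSS, which acts after these genes, was called in the other direction in both lines.

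The neutral amino acid carriers of that list differed between the lines. SLC1A5, which carries glutamine, rose in 23132/87 to 189 ± 16.4 with myricone C against 75.9 ± 1.08 with vehicle (SD, n = 3 each). In SW48 its means were 389 with myricone C and 388 with vehicle, and its log2 change missed the threshold. SLC1A4 rose in both lines, by 2.20 ± 0.14 in 23132/87 and by 1.01 ± 0.18 in SW48 (log2, SE). The difference, SW48 minus 23132/87, was -1.30 for SLC1A5 and -1.19 for SLC1A4, and both passed the test.

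Of the other genes for breakdown and export of glutathione, 4 of 9 listed rose and 2 fell in 23132/87 (median log2 change 0.32), and 2 of 7 rose and 1 fell in SW48 (median 0.12). CHAC2, the paralog of CHAC1 that degrades glutathione more slowly, averaged 5.71 ± 1.55 with myricone C against 9.03 ± 0.297 with vehicle in 23132/87 (SD, n = 3 each). It fell there by 0.61 on the log2 scale (adjusted p = 0.0158), though by 0.40 without treated replicate 1 (adjusted p = 0.0266) and by 0.40 with a pseudocount of 5 (adjusted p = 0.0129). In SW48 CHAC2 averaged 5.90 with myricone C and 8.49 with vehicle and did not pass the test (adjusted p = 0.0952), although it did with sample weights (log2 change -0.55, adjusted p = 0.0452). The exporter of glutathione conjugates ABCC2 rose in 23132/87 by 1.48 ± 0.12 (log2, SE), and ABCC3 rose by 0.78 ± 0.13 in 23132/87 and 0.86 ± 0.19 in SW48 (log2, SE). ABCC1, another conjugate exporter, averaged 25.9 with myricone C against 16.7 with vehicle in SW48 and rose there. The leucine aminopeptidase LAP3 fell in both lines, by 0.41 in 23132/87 and 0.52 in SW48 on the log2 scale, with the call lost without 23132/87 vehicle replicate 2 (log2 change -0.37, adjusted p = 0.0508), SW48 vehicle replicate 3 (-0.44, adjusted p = 0.0729) or SW48 treated replicate 3 (-0.41, adjusted p = 0.0623).

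No other peroxidase was called higher in either line. Of 7 listed genes 4 fell and none rose in 23132/87 (median log2 change -0.35), and 5 fell and none rose in SW48 (median -0.54). The genes that fell were peroxiredoxins, which reduce peroxides with thioredoxin rather than glutathione in most cases. GPX8, also on the list, had a positive log2 change that was not called in either line. It was 0.37 in 23132/87 (adjusted p = 0.0977) and 0.53 in SW48 (adjusted p = 0.0688) by limma. PRDX1 averaged 439 with myricone C against 857 with vehicle in 23132/87, a log2 change of -0.97 ± 0.15 (SE), and PRDX3, the mitochondrial member, changed by -0.83 ± 0.11 in 23132/87 and -0.97 ± 0.12 in SW48 (SE). Without SW48 treated replicate 1, 1 peroxidase gene was called higher in SW48 in place of none.

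Most of the other transferases fell in 23132/87. With 12 genes listed in each line, 10 fell and none rose in 23132/87 (median log2 change -0.67), and 4 fell and none rose in SW48 (median -0.43), and MGST1 in 23132/87 was the one transferase called higher in either line. GSTO1, an omega class transferase, averaged 25.4 ± 1.58 with myricone C against 53.4 ± 3.31 with vehicle in 23132/87 (SD, n = 3 each), and 61.9 ± 1.49 against 97.7 ± 3.80 in SW48 (SD, n = 3 each). The membrane relatives of MGST1 fell, with log2 changes of -0.77 ± 0.19 for MGST2 and -0.51 ± 0.14 for MGST3 in 23132/87, and -0.55 for MGST2 and -0.47 for MGST3 in SW48. The MGST2 call in SW48 was lost without treated replicate 2 (-0.43, adjusted p = 0.0625). GSTT2 and GSTT2B had the higher change in SW48, by 1.09 and 1.24 (0.50 and 0.68 with a pseudocount of 5), but they are near-identical copies and their separate values are uncertain.

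Among 13 listed glutaredoxin, thioredoxin and glyoxalase genes, 2 rose and 4 fell in 23132/87 (median log2 change -0.10), and 3 rose and 4 fell in SW48 (median -0.18). Over all genes 23.3% rose and 23.2% fell in 23132/87, and 10.1% rose and 19.2% fell in SW48. SRXN1, the sulfiredoxin that restores overoxidised peroxiredoxins, averaged 300.3 with myricone C against 56.7 with vehicle in 23132/87, and 350.0 against 52.7 in SW48. TXNRD1, the cytosolic thioredoxin reductase, rose by 1.77 ± 0.14 in 23132/87 and 1.86 ± 0.21 in SW48 (log2, SE). Its mitochondrial counterpart TXNRD2 fell by 0.90 in 23132/87 and by 0.61 in SW48 on the log2 scale. TXN, thioredoxin itself, rose in SW48, where it averaged 467 with myricone C against 301 with vehicle, and was not called in 23132/87 (log2 change -0.01).

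Of the genes for mitochondrial glutathione import and selenoprotein synthesis, 4 of 11 rose and 4 fell in 23132/87 (median log2 change -0.26), and 1 of 12 rose and 3 fell in SW48 (median -0.03). SEPHS2, which makes the selenium donor needed for GPX1, GPX2 and GPX4, averaged 81.2 with myricone C against 27.6 with vehicle in 23132/87, and 93.3 against 32.8 in SW48. Among the carriers of that list, SLC25A39 changed by -0.53 in 23132/87 (log2) and was not called in SW48 (-0.33). SLC25A11 changed by -0.91 in 23132/87 and was not called in SW48 (0.07). SLC25A40 was not called in 23132/87 (-0.28) and changed by -0.48 in SW48, a call lost in 4 of the 6 fits that left out 1 library. The dicarboxylate carrier SLC25A10 changed by -1.50 ± 0.13 in 23132/87 (log2, SE) and by -0.48 in SW48. Its SW48 call was lost without vehicle replicate 1, vehicle replicate 3, treated replicate 2 or treated replicate 3 (log2 changes from -0.54 to -0.36, adjusted p from 0.0525 to 0.120). It was also lost under quantile normalisation (adjusted p = 0.0519) and median scaling (adjusted p = 0.0643). The same held with structural RNA and mitochondrial pseudogenes left out and the libraries rescaled to a common total (adjusted p = 0.0556).

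In the list of transcription factors known to act on these genes, 8 of 10 listed rose in 23132/87 (median log2 change 1.23). In SW48, 7 of 9 rose (median 1.24), and none was called lower in either line. The list also holds KEAP1, an inhibitor of NRF2 rather than a transcription factor, which was not called (-0.12 in 23132/87 and -0.26 in SW48). BACH1, a repressor of NRF2 targets, was called higher in SW48 (0.40, adjusted p = 0.0389) and not in 23132/87 (0.43, adjusted p = 0.0541). ATF4 averaged 469.6 ± 20.2 with myricone C against 205 ± 16.4 with vehicle in 23132/87 (SD, n = 3 each), and 474 ± 109 against 130.2 ± 3.03 in SW48 (SD, n = 3 each). DDIT3 averaged 108 ± 20.2 with myricone C against 5.08 ± 1.74 with vehicle in 23132/87 (SD, n = 3 each), and 261 ± 116 against 9.23 ± 0.301 in SW48 (SD, n = 3 each). NFE2L2 rose by 0.42 ± 0.11 in 23132/87 (SE, adjusted p = 0.00909) and by 0.47 ± 0.13 in SW48 (SE, adjusted p = 0.0194). The NFE2L2 call in SW48 was lost in 4 of the 6 fits that left out 1 library, namely vehicle replicate 1 or 2 and treated replicate 2 or 3 (log2 changes from 0.40 to 0.44, adjusted p from 0.0558 to 0.0763).

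**Figure D4:**
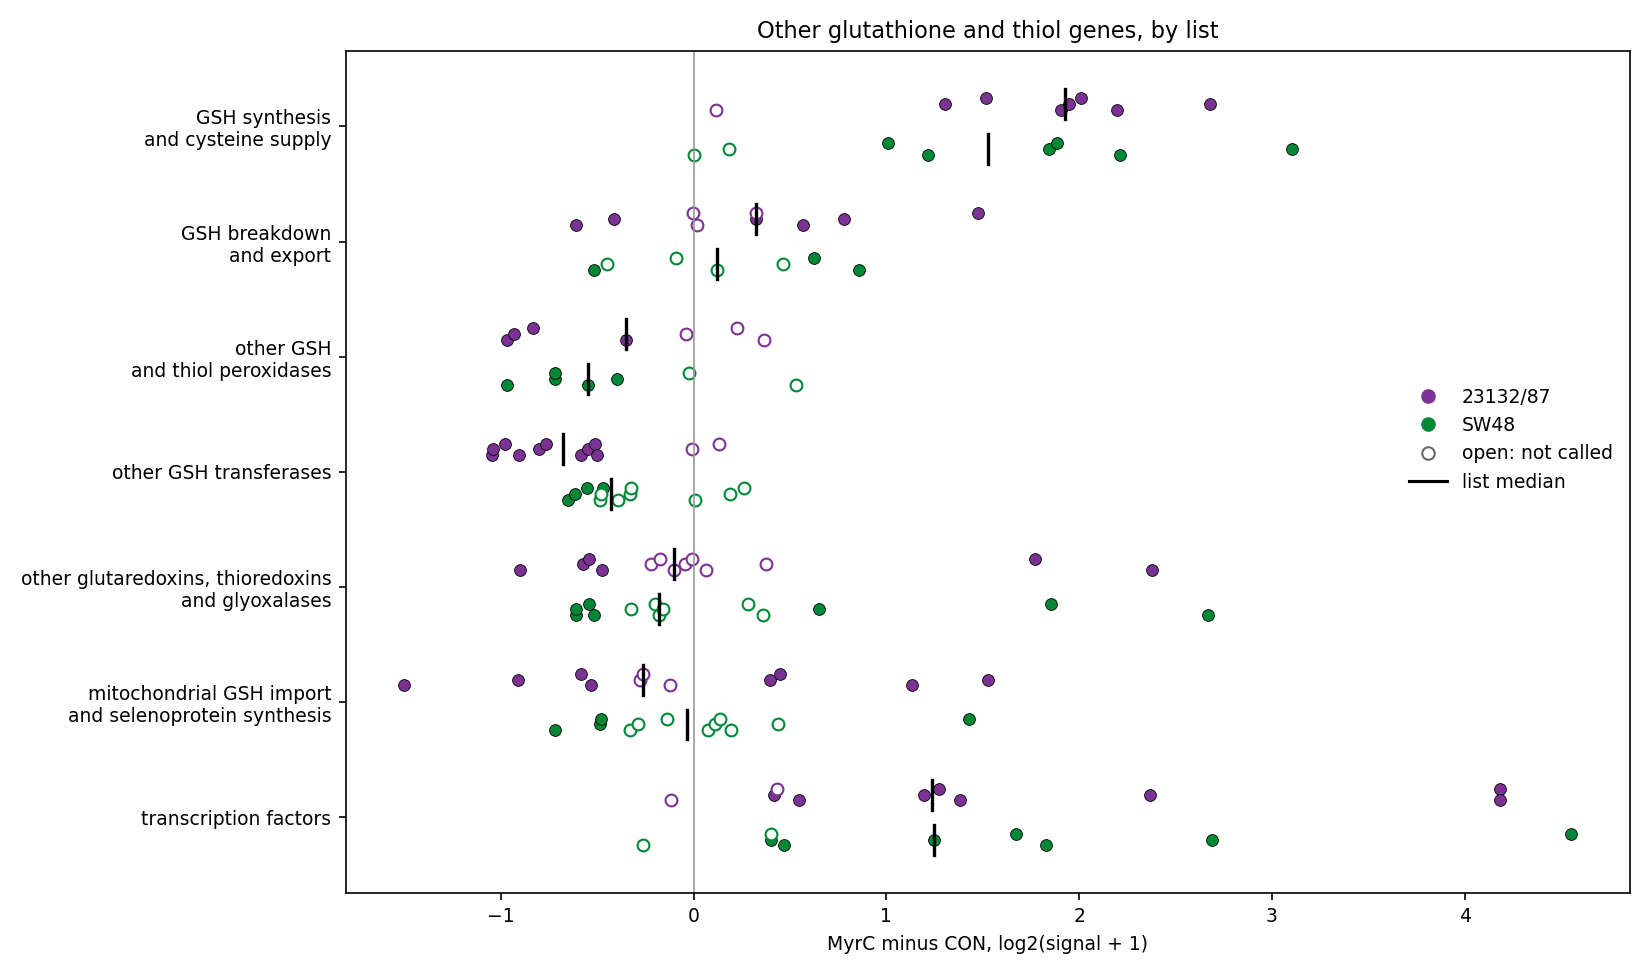
Log2 change of every listed gene of each pathway list in each line (myricone C minus vehicle), open where not called, with a black tick at the list's median. The medians of the synthesis and transcription factor lists lie above 0 in both lines, and those of the transferase and peroxidase lists lie below it.

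Genes like CHAC1 were sought among 5582 genes over the 12 libraries, by Pearson's r of log2(value + 1) centred on the mean of each line. The most like were CARS1 (r = 0.998), AARS1 (0.996), DDIT3 (0.994), ASNS (0.993) and TRIB3 (0.993). These r values are descriptions, since all libraries fall into treated and vehicle clusters. CARS1 and AARS1 encode transfer RNA synthetases and ASNS encodes asparagine synthetase. For GLRX, over the 6 SW48 libraries and 6624 genes, the most like were ASIC1, PTGFRN, SUMF2, ATP6V0E1 and FBXW4, with r between 0.987 and 1.00.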

How the data were processed

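Per the labels' protocols, the library kit keeps strand and takes mRNA. The submitters' processing notes list FastQC, STAR and the build GRCh38, and give no tool version. The authors deposited 1 table per line holding an expression signal per gene, library-scaled, with every listed value at least 1. Neither its unit nor the depth is given in the sources used here, so no intervals for counting error are given. Level and gene length had Spearman correlations of -0.177 in 23132/87 and -0.137 in SW48 across genes.

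From these values, limma 3.58.1 (R 4.3.3) was fitted to log2(value + 1) with a mean-variance trend, on the 6 libraries of each line, and on all 12 for the interaction over 10252 genes matched by Ensembl ID. P-values were adjusted by Benjamini-Hochberg over all genes, with a threshold of 0.05. The script was tested on simulated data. A mean of at least 1 was required, which every listed gene met. No library was a duplicate of another. Positions come from GENCODE release 29, promoter windows from RefSeq GRCh38.p14, and tables and figures were made with pandas 2.3.3 and matplotlib 3.10.9 in Python 3.11.15. Alternatives were other scalings, pseudocounts (0.1 and 5), filters, variance models, pooled and blocked fits, and leaving out each library. Where structural RNA and mitochondrial pseudogenes were left out, the remaining values of each line's libraries were also rescaled to a common total. The members, gene lists and naming rule were chosen with earlier results of these data known. Every member was named, and from each list up to 6 called genes per line with the largest change, apart from ATF4, DDIT3, NFE2L2 and genes of the synthesis and breakdown lists, which could all be named. GPX8 and KEAP1 were also named although not called. List counts without SW48 myricone C replicate 1, and the ratios within a library, were added after seeing the data. CHAC1 and GLRX, the members with the highest and lowest mean change, were the ones set beside their most like genes, taken with a mean of at least 10.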

Additional observations from a re-analysis of the deposited data

Results flagged for a closer look

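The change of MGST1 differed between the lines by a test of the difference itself. It was -0.16 in SW48 and 1.52 in 23132/87, and SW48 minus 23132/87 was -1.67 on the log2 scale (SE 0.22, adjusted p = 0.000421, limma over all 12 libraries).

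The change of GGCT also differed by that test. It was -0.40 in SW48 and -0.97 in 23132/87, and SW48 minus 23132/87 was 0.57 on the log2 scale (SE 0.17, adjusted p = 0.0357), with the call lost in 8 of the 12 fits that left out 1 library each.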

How the results depend on the processing

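In SW48, 5 members were called lower, but 3 were under quantile normalisation, median scaling, structural RNA and mitochondrial pseudogenes left out, no mean-variance trend, and the fit of all 12 libraries. GGCT and GSTP1 lost their calls in the first 4 of these settings. In the fit of all 12, GSTP1 lost its call and GLRX, absent from 23132/87, was not fitted. Under median scaling 2 members had a higher difference between the lines. With sample weights 2 were higher and 2 lower, among 888 higher and 1359 lower genes. Requiring at least 10 in at least 3 libraries left fewer genes to fit. Of 6767 genes 1658 were called higher in 23132/87, against 2582 of 11070 in the main fit. Of 5750 genes 425 had a lower difference, against 762 of 10252 in the main fit. The share of called genes that were higher in SW48 was 34.6%, against 46.2% (quantile), 49.4% (median scaling) and 46.4% (structural RNA and mitochondrial pseudogenes left out together). It was 50.1% in 23132/87, against 59.2% with both of these left out, and 41.8% for the difference, against 53.5% (quantile) and 60.3% (median scaling). Leaving out these RNAs came with a rescaling of each line's libraries to a common total, and the part of each step was not tested. Scaling moved the median of all genes by under 0.1 in every setting run.

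Libraries with the same title number did not deviate together (r from -0.27 to 0.11 in 23132/87 and from -0.18 to -0.07 in SW48), so these numbers were not taken to pair them. The SW48 column names, in which the treated libraries run from 2 to 4, leave 2 pairs with a shared number, whose r were 0.15 and 0.27, the highest in SW48. That is at most a hint from the data and not from the labels. In 23132/87 a pair without a shared number reached an r of 0.36. With the replicate block by title number 354 genes had a higher and 416 a lower difference, and 0 members were higher (GGCT adjusted p = 0.0564). With the block by column number 1 member was higher in SW48 and 0 had a higher difference. This block takes the SW48 change from only the 2 pairs. Vehicle replicate 1 and treated replicate 3 share a number with no other SW48 library and add nothing to it. That block left GSS (-0.43, adjusted p = 0.0641), GSR (0.44, adjusted p = 0.0551) and GSTP1 uncalled in SW48, called GPX4 (-0.49, adjusted p = 0.0315), and also ended the SW48 calls of LAP3, NFE2L2 and SLC25A10 (adjusted p from 0.0721 to 0.102).

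Some uncalled changes turned sign. The 23132/87 change of GSR was 0.14 under quantile normalisation, 0.081 with structural RNA and mitochondrial pseudogenes left out and 0.0049 with sample weights, and between -0.060 and 0.038 without 1 library. Without 1 library, the 23132/87 changes ranged from -0.022 to 0.21 for GPX4 and from -0.012 to 0.23 for GSTP1, and the SW48 change of SLC1A5 from -0.050 to 0.060. The difference in GPX1 was 0.036 under median scaling and between -0.23 and 0.053 without 1 library.

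Leaving out 1 library gave 2 members higher and 3 to 4 lower in 23132/87 (2009 to 2435 genes higher, 1950 to 2453 lower), and 1 to 2 higher and 3 to 5 lower in SW48 (768 to 1333 genes higher, 1431 to 2323 lower, both least without treated replicate 2). For the difference it gave 0 to 3 members higher and 1 to 2 lower (366 to 600 genes higher, 465 to 828 lower). The calls of CHAC1 in both lines and of MGST1 in 23132/87 held in all settings run. The lower calls of GGCT, GSS and GPX2 in 23132/87 and of GPX1 and GLRX in SW48 also held in every setting that fitted them. Precision is limited by 3 libraries a group and an unknown depth.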
